A study of Mus musculus with 12 samples.

Results

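Recovered macrophages were compared with macrophages meeting lipopolysaccharide (LPS, a component of the outer membrane of Gram-negative bacteria) for the first time. The comparison took the 3 arrays titled as recovery and the 3 titled as acute response, 6 of the 12 arrays of the series, and all 20469 genes tested. All cells were bone marrow-derived macrophages from female C57BL/6 mice aged 6 to 8 weeks, grown for 7 days in medium conditioned by L929 cells, a fibroblast line that secretes macrophage colony-stimulating factor. Acute cells received LPS for 4 h. Recovered cells received LPS for 8 h, were rested, and received LPS again for 4 h, and that rest is 88 h in the sample descriptions but 2 to 4 days in the protocol. Tolerant cells had the same 2 exposures around a rest of 16 h, and untreated cells had no LPS. Levels of those 2 groups are quoted only as points of reference, but their arrays also enter the fit, the background filter and the choice of probe. With the 6 recovered and acute arrays fitted alone 828 genes were called, against 2199 in the main fit. The LPS dose is not given in the sources used here. The labels describe 3 independent experiments per group without saying if their mice differed, so p-values measure only the spread between these arrays. In the main fit this is the spread left, over all groups, once differences between the replicate numbers are removed. No array holds untreated cells kept as long as the recovered cells, or cells given the first LPS and the rest without the second LPS, so the first exposure, the rest and the longer culture cannot be told apart.

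LPS is bound by CD14 and by Toll-like receptor 4 with its partner MD-2. The adaptor MyD88 then drives NF-κB and the early cytokines, while the adaptor TRIF drives interferon beta, which acts back on the cells and induces interferon response genes. A first exposure leaves macrophages tolerant for a time, with a weaker cytokine response to the next exposure. The comparison addresses how far the response after a longer rest matches that of cells that had not met LPS before.

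Levels are log2 of the spot intensity after scaling each array to its 75th percentile. Differences are recovered minus acute on that log2 scale, with the standard error (SE) from a limma fit over all 12 arrays that holds the replicate number as a block, and n = 3 arrays per group throughout. Calls were made where p, after Benjamini-Hochberg adjustment, was under 0.05. The share of spots well above background ran from 47.8% to 55.0% by array, and 0 spots were saturated. Of 29 macrophage identity genes 28 were well above background on all 3 arrays in acute and in recovered cells. Of 22 defining markers of other cell types 10 were above background on 0 arrays of either group, among them Xcr1 and Clec9a of dendritic cells, Ms4a1 of B cells, Mcpt8 and Cpa3 of mast cells and basophils, Col1a1 and Pdgfra of stromal cells, and Itga2b of platelets. Another 4 were above background on all 3 arrays of both groups, Elane of neutrophils, Cd3e of T cells, Cd79b of B cells and Col1a2 of stromal cells, and the rest on some arrays. The 4 arrays numbered 3 shared a slide, the only one scanned on another day, and recovered replicate 1 lay on another slide than acute replicate 1.

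Most genes had similar levels in recovered and acute cells. The 95% interval of the difference lay inside 2-fold for 17257 genes (84.3%), and the median difference was 0.044. Called genes numbered 2199 (10.7% of those tested), 1226 higher in recovered cells (5.99%) and 973 lower (4.75%). Of these, 394 were at least 2-fold higher and 347 at least 2-fold lower. The 3 arrays of one group lay above all 3 of the other for 4027 genes (19.7%). Same-numbered recovered and acute arrays differed in the same direction in all 3 pairs for 2197 of the called genes. The calls rest on these same differences, so this agreement follows largely from how the genes were called. Without the replicate block 418 of the calls were left, 299 higher and 119 lower. The calls also depended on single arrays. They numbered 767 without acute replicate 2, 961 without acute replicate 1, 979 without recovered replicate 1 and 1217 without recovered replicate 2. The 607 genes called whichever of the 6 arrays was left out comprised 318 higher and 289 lower genes. With scaling to the median in place of the 75th percentile, the median difference was -0.060 and 35.6% of the calls were higher, against 55.8% in the main fit. Small differences are therefore read relative to the median of all genes.

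**Figure D1:**
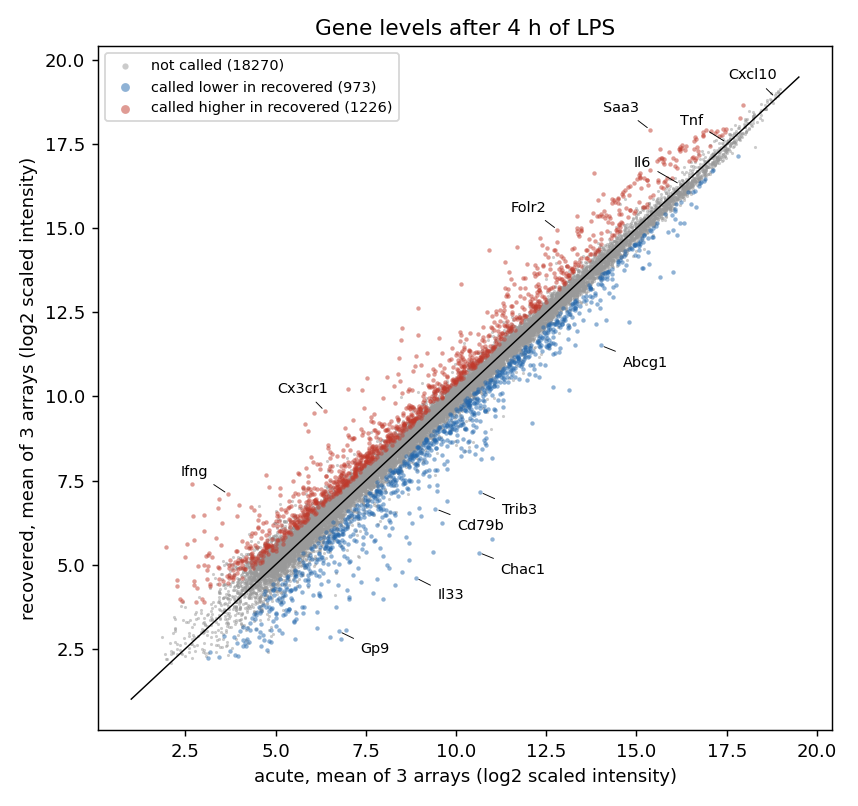
Mean log2 scaled intensity of each of the 20469 genes on the 3 acute arrays (horizontal axis) and the 3 recovered arrays (vertical axis); the line marks equal levels. The 1226 genes called higher and the 973 called lower in recovered cells are coloured. Tnf, Il6 and Cxcl10 lie on the line near the top, while Chac1, Il33 and Gp9 lie far below it and Cx3cr1 and Ifng above it.

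**Figure D2:**
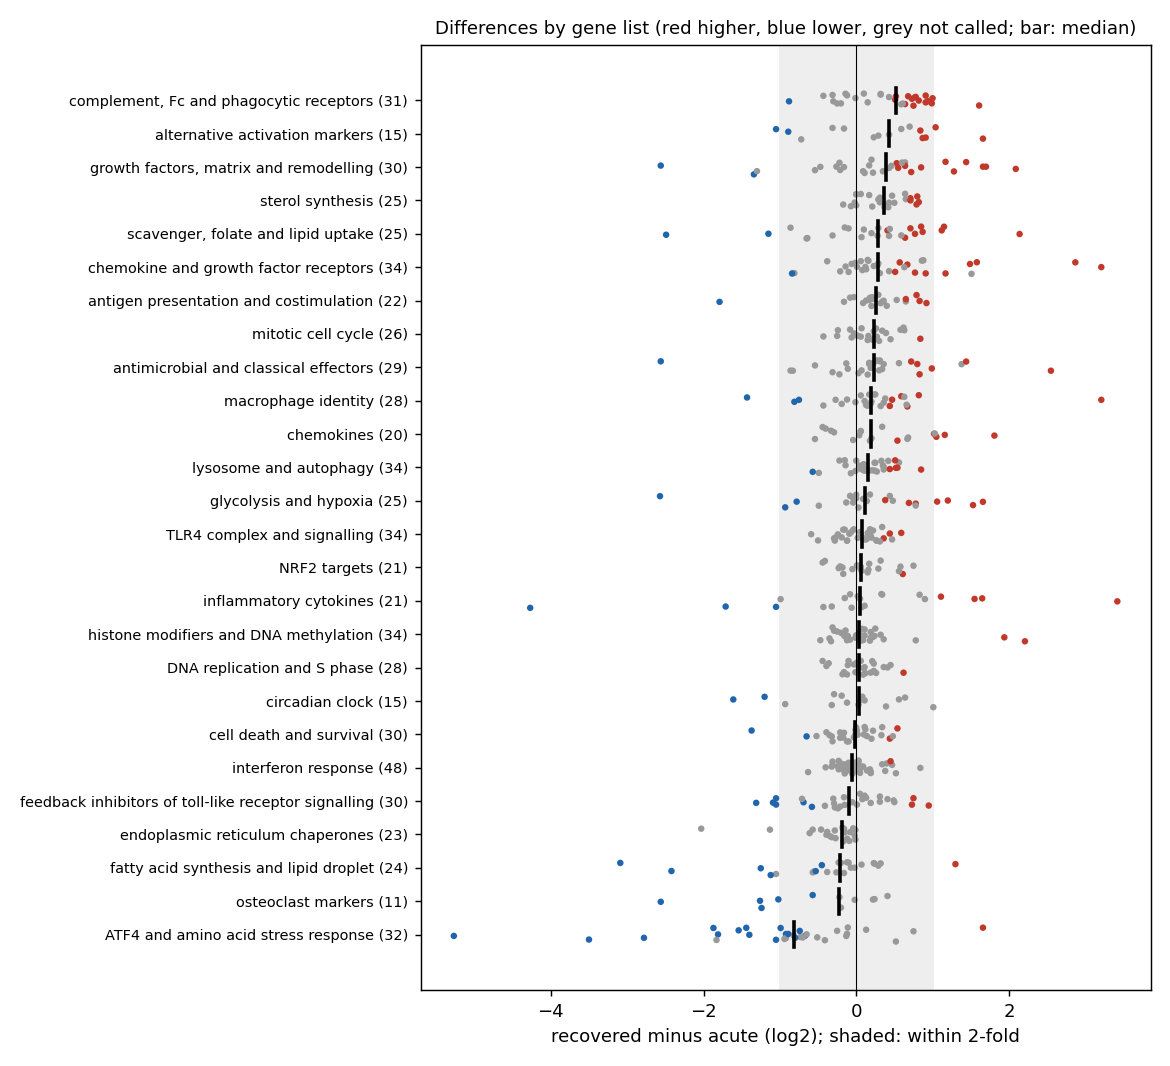
Differences between recovered and acute cells (log2, horizontal axis) for the members of each gene list with at least 10 measured genes; the number measured is in brackets, the black bar is the list's median and the shading marks differences within 2-fold. The list of genes controlled by ATF4 has the lowest median, -0.81, and that of complement, Fc and phagocytic receptors the highest, 0.52, while the 48 interferon response genes lie close to 0.

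For 6 genes strongly induced by LPS, Tnf, Il6, Cxcl10, Ccl5, Nos2 and Acod1, the levels of recovered and acute cells differed by less than 2-fold. Tnf, which encodes tumour necrosis factor, was at 17.28, 17.41 and 17.82 on the acute arrays and at 17.61, 17.20 and 17.85 on the recovered arrays. The groups overlapped, and the difference was 0.05 with a 95% interval of -0.38 to 0.48 (limma, adjusted p = 0.888). Its mean in tolerant cells was 15.48. Il6 was at 16.66, 16.20 and 15.81 on the acute arrays and at 16.99, 16.01 and 15.89 on the recovered arrays. Its difference of 0.07 had an interval of -0.70 to 0.85. Cxcl10, a chemokine induced by interferons, differed by 0.04 (interval -0.48 to 0.56), with levels from 18.63 to 19.17 on all 6 arrays. For Nos2, the inducible nitric oxide synthase, the difference was 0.19 (interval -0.45 to 0.83). For Acod1, which makes itaconate, it was 0.15 (interval -0.32 to 0.62), and for Ccl5 it was 0.20 (interval -0.35 to 0.75). All 6 intervals excluded a 2-fold difference. The sign of such small differences was not stable, and it changed for Tnf, Il6 and Cxcl10 with scaling to the median.

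Interferon response genes were also at acute levels. Of 48 measured members 1 was called higher and 0 lower, against 5.99% and 4.75% of all genes. An interval inside 2-fold was found for 46, against 84.3% of all genes. The list's median was -0.05 against 0.044 for all genes. Rsad2, which makes an antiviral nucleotide, differed by -0.03 ± 0.17 (SE), Mx1, an antiviral GTPase, by 0.05 ± 0.17 and Isg15, a ubiquitin-like modifier, by -0.10 ± 0.11. The called member was Zbp1, a sensor of nucleic acids, at 0.45 ± 0.12 (limma, adjusted p = 0.0433). That call was lost without any one of the 6 arrays (adjusted p up to 0.149) and without the replicate block (adjusted p = 0.249). The lowest and highest members were Gbp4 at -0.63 and Iigp1 at 0.84, both GTPases induced by interferon gamma, and neither was called.

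A smaller set of cytokines differed. Of 21 measured inflammatory cytokines 4 were higher and 3 lower, against 5.99% and 4.75% of all genes. Their median was 0.05 (-0.06 with scaling to the median). Il33, an alarmin of the interleukin 1 family, was at 10.24, 9.35 and 7.04 on the acute arrays and at 5.47, 4.66 and 3.69 on the recovered arrays. All recovered arrays lay below all acute arrays, and Il33 was above background on 2 of the 3 recovered arrays. Il33 fell by 4.27 on the log2 scale (SE 0.51, limma adjusted p = 0.00220), and it was above background on 0 arrays of tolerant and of untreated cells. Ifng, which encodes interferon gamma, was at 7.88, 7.30 and 6.11 on the recovered arrays and at 4.20, 4.92 and 1.92 on the acute arrays. It was above background on 3 recovered arrays and 1 acute array, and it rose by 3.42 ± 0.55 (adjusted p = 0.00705). Ifng passed the filter on signal above background only through the recovered arrays, and Il33 only through the acute arrays. Their detection counts are therefore partly set by that filter. Of the 7 calls these were the 2 that held whichever of the 6 arrays was left out.

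Of the other 5 cytokine calls, 4 were lost without the replicate block and that of Il19 held. Il1b, which encodes interleukin 1 beta, was at 12.82, 12.68 and 12.66 on the acute arrays and at 14.87, 14.09 and 14.16 on the recovered arrays. It rose by 1.65 ± 0.36 (limma, adjusted p = 0.0215), to the mean of tolerant cells (14.37 in recovered and 14.38 in tolerant cells). Il12a, a subunit of interleukin 12, rose by 1.55 ± 0.36 (adjusted p = 0.0260). Its partner subunit Il12b, at 13.11, 13.23 and 13.05 on the acute arrays and 13.14, 11.95 and 11.33 on the recovered arrays, was not called (-0.99 ± 0.36, adjusted p = 0.106). Il19, of the interleukin 10 family, rose by 1.11 ± 0.20 (adjusted p = 0.0115). Ifnb1, interferon beta, was at 14.68, 14.46 and 12.50 on the acute arrays and at 13.22, 11.87 and 11.41 on the recovered arrays, so the groups overlapped. It fell by 1.71 on the log2 scale (adjusted p = 0.0283, SE 0.40). Il10, the main cytokine that restrains macrophages, was at 11.51, 10.47 and 10.32 on the acute arrays and at 10.09, 9.30 and 9.77 on the recovered arrays. It fell by 1.05 (SE 0.20, adjusted p = 0.0129). Without the replicate block the calls of Il1b (adjusted p = 0.0562), Il12a (0.0596), Ifnb1 (0.234) and Il10 (0.263) were lost. With the slide as the block those of Ifnb1 (0.0752) and Il10 (0.0764) were lost. The calls of Il1b, Il10 and Ifnb1 were each lost without acute replicate 1 and without acute replicate 2, with adjusted p up to 0.0913, 0.0636 and 0.121 over all 6 arrays left out. All 3 were also lost without recovered replicate 1, Il10 and Ifnb1 without recovered replicate 2, and Il1b and Ifnb1 without recovered replicate 3. The call of Il19 was lost without acute replicate 2 (adjusted p = 0.0516).

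**Figure D3:**
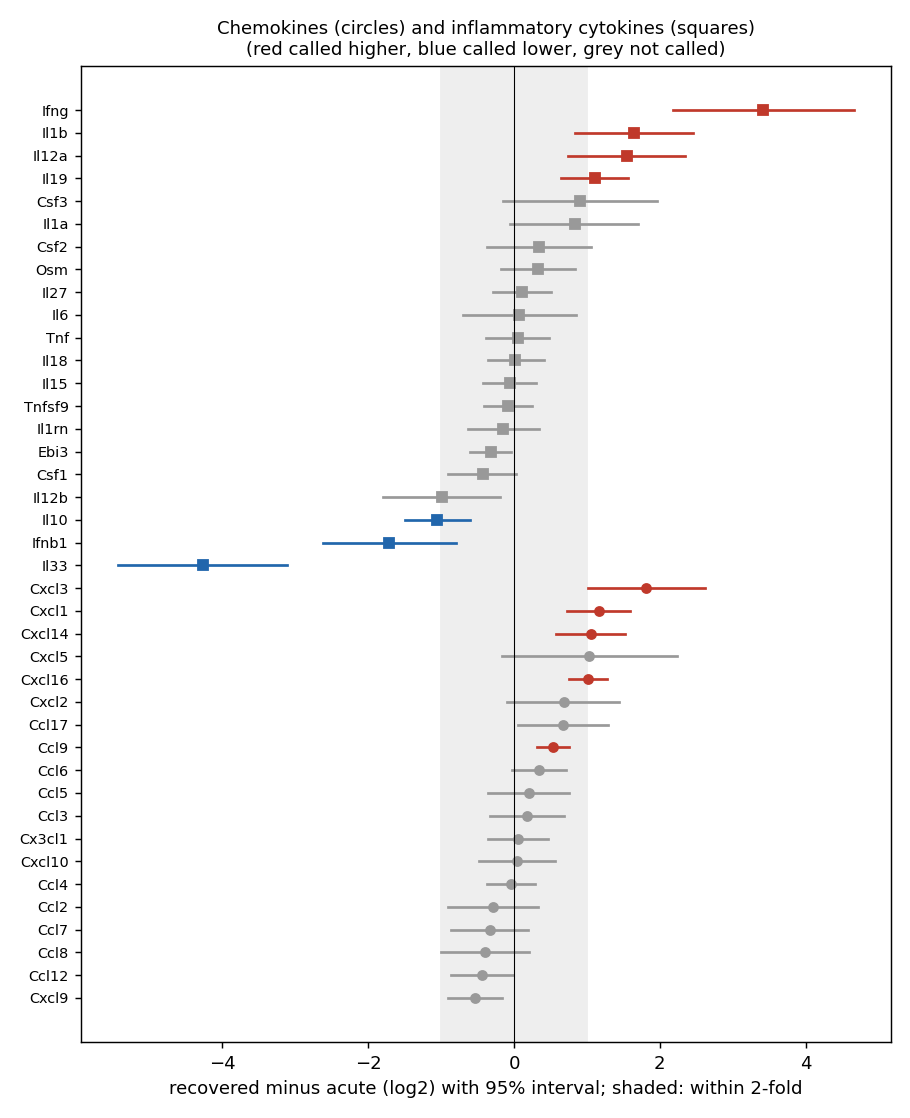
Difference between recovered and acute cells (log2, horizontal axis) with its 95% interval for the measured inflammatory cytokines (squares) and chemokines (circles); 1 chemokine is not drawn. Ifng (3.42) and Il33 (-4.27) mark the ends, while the intervals of Tnf, Il6, Cxcl10 and Ccl5 lie inside the shaded range of 2-fold.

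Among 20 measured chemokines 5 were higher and 0 lower in recovered cells, against 5.99% and 4.75% of all genes. Their median was 0.19. The monocyte attractants Ccl2 (-0.29), Ccl7 (-0.33), Ccl3 (0.18) and Ccl4 (-0.04) were not called. Cxcl1 and Cxcl3, which attract neutrophils, rose by 1.16 ± 0.19 and 1.81 ± 0.36 (limma, adjusted p = 0.00798 and 0.0143). Cxcl1 was at 12.60, 13.19 and 14.03 on the acute arrays and at 13.82, 14.42 and 15.06 on the recovered arrays, a difference of 1.03 to 1.23 in each pair although the groups overlapped. Its call was lost without the block (adjusted p = 0.391) and with the slide as the block (0.0516). That of Cxcl3 was lost without acute replicate 2 or acute replicate 3 (adjusted p up to 0.0706). Cxcl16, a transmembrane chemokine that also binds oxidised lipoprotein, was at 13.19, 13.06 and 12.77 on the acute arrays and at 14.09, 14.31 and 13.67 on the recovered arrays. It rose by 1.02 ± 0.11 (adjusted p = 0.00180), and this call held in all of those settings.

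**Figure D4:**
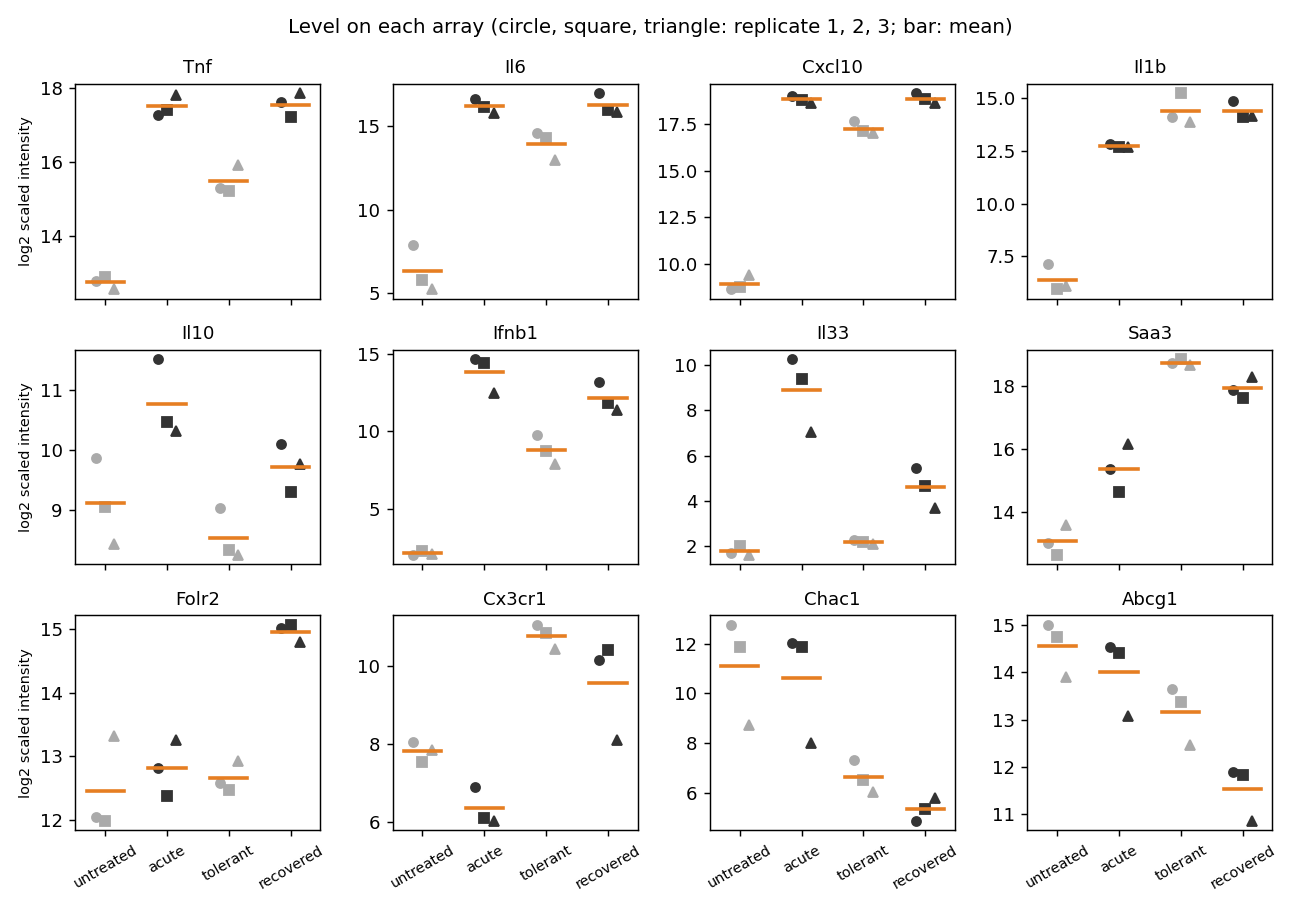
Log2 scaled intensity (vertical axis) of 12 genes on each of the 12 arrays by group; circles, squares and triangles are replicates 1, 2 and 3, the bar is the mean, and acute and recovered arrays are in black. Tnf, Il6 and Cxcl10 stand at equal levels in acute and recovered cells, Saa3, Folr2 and Cx3cr1 are higher on every recovered array, and Il33, Chac1 and Abcg1 are lower.

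The serum amyloid A genes Saa1 and Saa3 were higher in recovered cells. Of 29 antimicrobial and classical effectors 6 were higher and 1 lower, with a median of 0.23, against 5.99% and 4.75% of all genes. Saa3, a serum amyloid A protein made by macrophages, was at 15.36, 14.64 and 16.15 on the acute arrays and at 17.89, 17.63 and 18.28 on the recovered arrays, with no overlap. It rose by 2.55 ± 0.25 (limma, adjusted p = 0.00111), and its mean in tolerant cells was higher still, 18.75. Saa1 rose by 2.83 ± 0.26 (adjusted p = 0.000955), with 16.65 in recovered and 17.37 in tolerant cells. Serum amyloid A genes are close copies of each other, so their probes may share signal. Sod2, the mitochondrial superoxide dismutase, rose by 0.83 ± 0.10 (adjusted p = 0.00233). Ptgs2, the inducible cyclooxygenase, rose by 0.99 ± 0.23 (adjusted p = 0.0291). That call was lost without the block (adjusted p = 0.386) and without any array but recovered replicate 2 (up to 0.109). Lcn2, which binds bacterial siderophores, was not called (1.38 ± 0.61, adjusted p = 0.174), with pair differences of -0.10, 1.85 and 2.38. Mmp9, a gelatinase, was at 11.25, 10.53 and 10.27 on the acute arrays and at 9.42, 7.15 and 7.80 on the recovered arrays. It fell by 2.56 on the log2 scale (adjusted p = 0.00821, SE 0.43).

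Of 34 measured genes of the TLR4 complex and its signalling 3 were higher and 0 lower, against 5.99% and 4.75% of all genes, and 33 had an interval inside 2-fold, against 84.3% of all genes. Cd14 rose by 0.59 ± 0.11 (limma, adjusted p = 0.0128), Tlr2 by 0.44 ± 0.10 (0.0215) and Ikbkb, a kinase of the NF-κB pathway, by 0.36 ± 0.10 (0.0455). Without the block all 3 calls were lost (adjusted p = 0.0572, 0.221 and 0.447). Each was also lost without acute replicate 2 and without at least 1 other of the 6 arrays (adjusted p up to 0.0706, 0.107 and 0.134). Tlr4 itself, at 12.11, 11.74 and 11.16 on the acute arrays and 11.63, 11.38 and 11.14 on the recovered arrays, was not called (-0.29 ± 0.13, adjusted p = 0.175).

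Feedback inhibitors of the pathway gave calls in both directions. Of 30 measured 3 were higher and 6 lower, against 5.99% and 4.75% of all genes, with a median of -0.10. Socs3, which blocks cytokine receptors, was at 14.97, 14.66 and 14.83 on the acute arrays and at 15.52, 15.49 and 15.64 on the recovered arrays, and rose by 0.73 ± 0.12 (limma, adjusted p = 0.00668). Pdlim2, which promotes degradation of NF-κB, rose by 0.95 ± 0.17 (adjusted p = 0.0113). Both calls held without the block. Cish, a relative of Socs3, fell by 1.09 on the log2 scale (adjusted p = 0.00612, SE 0.17), and Dusp1, a phosphatase of the p38 kinase, fell by 1.05 (SE 0.26, adjusted p = 0.0326). Without the block the latter calls were lost (adjusted p = 0.132 and 0.172), and with the slide as the block that of Dusp1 was lost (0.146). Of the 9 calls, 3 held whichever of the 6 arrays was left out, those of Socs3, Pdlim2 and Cish. Irak3, an inhibitory relative of the receptor kinases often named in tolerance, was not called (0.50 ± 0.17, adjusted p = 0.0886). Its recovered mean of 13.25 was close to the tolerant mean of 13.23, with 12.75 in acute cells.

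Among complement components, Fc receptors and phagocytic receptors 15 of 31 measured members were higher in recovered cells, against 5.99% of all genes, 1 was lower, and the median was 0.52. C1qa, a chain of the first complement component, was at 14.34, 14.56 and 14.66 on the acute arrays and at 15.45, 15.58 and 15.29 on the recovered arrays. It rose by 0.91 ± 0.15 (limma, adjusted p = 0.00798). The other chains C1qb and C1qc rose by 0.68 ± 0.13 and 0.64 ± 0.11 (adjusted p = 0.0118 and 0.0104). C3, the central complement component, rose by 0.99 ± 0.13 (adjusted p = 0.00300). Vsig4, a complement receptor of resident macrophages, rose by 1.61 ± 0.29 (adjusted p = 0.0103) although its arrays overlapped, from 4.24 to 6.92 in acute and from 6.57 to 8.26 in recovered cells. Fcgr2b, the inhibitory Fc receptor, rose by 0.94 ± 0.21 (adjusted p = 0.0229). Fcgr4, an activating Fc receptor, fell by 0.88 on the log2 scale (adjusted p = 0.00840, SE 0.15). Without the block 6 of these 16 calls were left, those of C1qa, C1qb, C3, Cd93, Clec4d and Trem2. C1qc (adjusted p = 0.0937), Vsig4 (0.494), Fcgr2b (0.0558) and Fcgr4 (0.189) were among those lost, and the call of Fcgr4 was lost with the slide as the block as well (0.120). The calls of 5 members, 4 higher and 1 lower, held whichever of the 6 arrays was left out.

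Among genes of scavenging and of lipid and folate uptake, 9 of 25 were higher and 2 lower, against 5.99% and 4.75% of all genes. Their median was 0.29. Folr2, a folate receptor of macrophages, was at 12.82, 12.37 and 13.25 on the acute arrays and at 15.02, 15.06 and 14.79 on the recovered arrays. It rose by 2.14 ± 0.27 (limma, adjusted p = 0.00241), while the means of untreated and tolerant cells, 12.45 and 12.66, were close to that of acute cells. Msr1, the class A scavenger receptor, rose by 1.15 ± 0.12 (adjusted p = 0.00164), by 1.11 to 1.18 in each pair, and Mrc1, the mannose receptor, rose by 0.87 ± 0.16 (adjusted p = 0.0124). The call of Mrc1 was lost without recovered replicate 1 or acute replicate 2 (adjusted p up to 0.0571). Nr1h3, the liver X receptor alpha, rose by 1.12 ± 0.20 (adjusted p = 0.0104). Abcg1, a cholesterol exporter and a textbook target of that receptor, went the other way. It was at 14.53, 14.41 and 13.08 on the acute arrays and at 11.89, 11.82 and 10.86 on the recovered arrays, below the tolerant mean of 13.16. It fell by 2.49 on the log2 scale (adjusted p = 7.36e-05, SE 0.12), by 2.64, 2.59 and 2.22 in the 3 pairs. Apoe, another target of the receptor, rose by 0.71 ± 0.12 (adjusted p = 0.00956), and Abca1 was not called (-0.64). Without the block the calls of Nr1h3 (adjusted p = 0.0700) and Apoe (0.369) were lost. Of the 11 calls 4 held whichever of the 6 arrays was left out, 2 higher and 2 lower.

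Receptors for chemokines and growth factors were higher in 10 of 34 cases and lower in 1, against 5.99% and 4.75% of all genes, with a median of 0.28. Of these 11 calls 5 were left without the replicate block. Cx3cr1, the fractalkine receptor, was at 6.92, 6.12 and 6.05 on the acute arrays and at 10.16, 10.43 and 8.12 on the recovered arrays, and rose by 3.21 ± 0.41 (limma, adjusted p = 0.00255). Both probes of the gene were called higher. Its means in untreated and tolerant cells were 7.82 and 10.79. P2ry12, a receptor for adenosine diphosphate, rose by 1.58 ± 0.18 (adjusted p = 0.00205), a call lost without the block (adjusted p = 0.0765). Csf1r, the receptor of macrophage colony-stimulating factor, rose by 0.67 ± 0.12 (adjusted p = 0.0100), with all 3 of its probes called higher, and the call was lost without acute replicate 2 (adjusted p = 0.0541). Il6ra, the interleukin 6 receptor, fell by 0.84 on the log2 scale (adjusted p = 0.0119, SE 0.16). Of the 11 calls 5 held whichever of the 6 arrays was left out, all of them higher, so that of Il6ra did not.

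Genes of growth, matrix and repair were higher in 11 of 30 cases and lower in 2, against 5.99% and 4.75% of all genes, with a median of 0.39. Of these 13 calls 5 were left without the replicate block. Vegfa, the vascular growth factor, was at 7.81, 7.20 and 7.09 on the acute arrays and at 8.99, 9.27 and 8.81 on the recovered arrays. It rose by 1.66 ± 0.20 (limma, adjusted p = 0.00220), to near the tolerant mean of 9.30 and below the untreated mean of 9.93. Thbs1, a matrix protein that activates transforming growth factor beta, rose by 2.09 ± 0.34 (adjusted p = 0.00734). Adam8, a membrane protease, rose by 1.70 ± 0.24 (adjusted p = 0.00444). Mmp14, which cleaves collagen at the cell surface, rose by 1.44 ± 0.26 (adjusted p = 0.0103), a call lost without the block (adjusted p = 0.127) and without acute replicate 2 (0.0503). Of 15 measured markers of alternative activation 5 were higher and 2 lower, against the same shares of all genes, with a median of 0.43. Tgm2, a transglutaminase, rose by 1.04 ± 0.12 (adjusted p = 0.00209), and Mgl2, a lectin, by 0.84 ± 0.12 (adjusted p = 0.00377). Pparg, a nuclear receptor of lipid metabolism, fell by 0.89 on the log2 scale (adjusted p = 0.0114, SE 0.16). Its call was lost without the block (adjusted p = 0.290) and without recovered replicate 1, acute replicate 1 or acute replicate 2 (up to 0.0605).

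Among 28 measured macrophage identity genes 6 were higher and 3 lower, against 5.99% and 4.75% of all genes, with a median of 0.20. Without the block 3 of these calls were left, and with the slide as the block 5. Whichever of the 6 arrays was left out, 1 higher and 2 lower calls held. Irf8, a transcription factor of the myeloid line that interferons also induce, was at 15.66, 15.42 and 14.99 on the acute arrays and at 14.23, 13.63 and 13.92 on the recovered arrays. It fell by 1.43 on the log2 scale (SE 0.17, limma adjusted p = 0.00215). Batf3, a partner of Irf8 in dendritic cells, was at 9.97, 9.69 and 9.59 on the acute arrays and at 8.15, 7.79 and 7.60 on the recovered arrays, and fell by 1.90 (SE 0.22, adjusted p = 0.00209). The macrophage marker Adgre1, a surface protein of mature macrophages, was not called (-0.19). Of 22 antigen presentation and costimulation genes 4 were higher and 1 lower, against the same shares of all genes. The costimulatory ligand Cd86 fell by 1.79 (SE 0.29, adjusted p = 0.00722), with 14.15, 13.72 and 12.04 on the acute arrays against 11.97, 11.33 and 11.25 on the recovered arrays. H2-K1, a class I molecule, rose by 0.65 ± 0.11 (adjusted p = 0.0100). Class I genes are near-identical copies, so signal may be shared between them. Without the block all 5 calls of that list were lost, Cd86 with adjusted p = 0.176 and H2-K1 with adjusted p = 0.125. That of H2-K1 was also lost without acute replicate 2 (0.0534), and of the 5 only that of Cd86 held whichever of the 6 arrays was left out.

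The amino acid stress response was lower in recovered cells. Its regulator ATF4 is translated when cells lack amino acids or when unfolded proteins load the endoplasmic reticulum, and it turns on genes of amino acid uptake, amino acid synthesis and tRNA charging. Of 32 measured members 15 were lower and 1 was higher, against 4.75% and 5.99% of all genes, and the median was -0.81. Chac1, which degrades glutathione, had the largest fall of all genes tested. It was at 12.02, 11.86 and 8.00 on the acute arrays and at 4.90, 5.37 and 5.80 on the recovered arrays, and fell by 5.27 on the log2 scale (SE 0.87, limma adjusted p = 0.00775). Trib3, a pseudokinase that restrains the pathway, was at 12.17, 11.59 and 8.22 on the acute arrays and at 7.21, 7.45 and 6.82 on the recovered arrays, and fell by 3.50 (SE 0.73, adjusted p = 0.0182). Asns, the asparagine synthetase, fell by 1.87 (SE 0.31, adjusted p = 0.00817), from 15.05, 14.59 and 12.81 to 12.57, 12.58 and 11.69. Slc7a5, a transporter of large amino acids, fell by 2.78 (SE 0.55, adjusted p = 0.0146), and Mthfd2, a mitochondrial folate enzyme, by 1.54 (SE 0.28, adjusted p = 0.0117). Atf4 itself fell by 0.99 (SE 0.26, adjusted p = 0.0452). Ddit3, which encodes CHOP, was not called (0.52 ± 0.28, adjusted p = 0.253). The member that rose was Vegfa, described above.

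The falls differed in size between the replicates. Acute replicate 3 was lower than the other acute arrays for Chac1, Trib3, Asns and Slc7a5, and the pair differences of Chac1 were -7.12, -6.49 and -2.20. Over the 32 members the median difference was -1.27, -0.92 and -0.38 in pairs 1, 2 and 3. Untreated replicate 3 was also the lowest untreated array for Chac1, at 8.75 against 12.74 and 11.86. Tolerant cells, at means of 6.64 for Chac1 and 8.42 for Trib3, were below acute cells too. Untreated means were near or above acute means for Chac1 (11.12 against 10.63), Trib3 (12.73 against 10.66) and Asns (13.94 against 14.15). For Atf3 the untreated mean of 14.58 was below the acute mean of 16.20. Without the replicate block the calls of Chac1 (adjusted p = 0.0420), Atf3 (0.0479) and Vegfa (0.0241) were left, and the other 13 were lost, with Trib3 at adjusted p = 0.153, Asns at 0.274, Slc7a5 at 0.323 and Atf4 at 0.261. The call of Trib3 was also lost without any one of recovered replicates 1 and 2 and acute replicates 1 and 2 (adjusted p up to 0.0845), and that of Atf3 without recovered replicate 1, acute replicate 1 or acute replicate 2 (up to 0.0579). Of the 16 calls 3 held whichever of the 6 arrays was left out, those of Chac1, Asns and Vegfa. Genes of endoplasmic reticulum chaperones, another branch of the unfolded protein response, gave 0 calls of 23 by limma, against 10.7% of all genes. Of the 23, 6 had an unadjusted p under 0.05. All 23 differences were negative, with a median of -0.18, and the smallest p was that of Dnajb9 (-0.61 ± 0.19, adjusted p = 0.0690). That value is from its brightest probe, and with probes tested singly 1 of its 2 probes was called lower. Hspa5, the main chaperone, differed by -0.08.

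**Figure D5:**
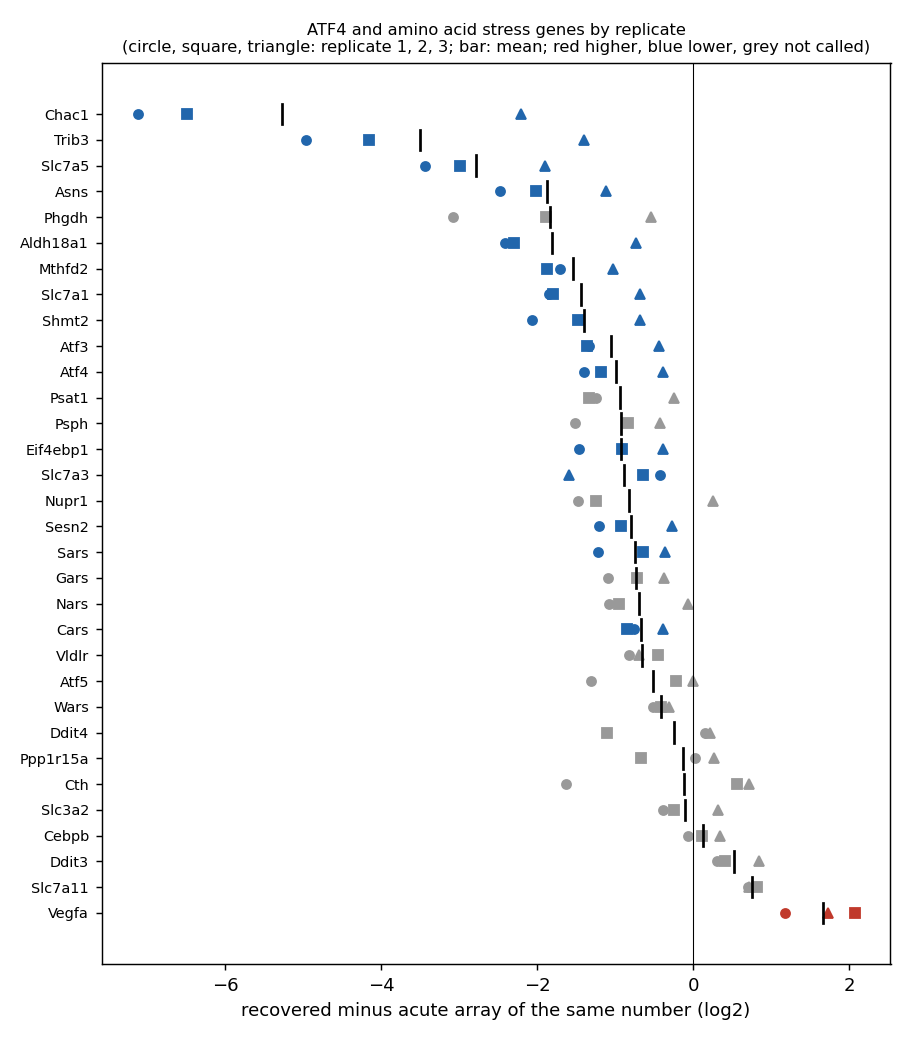
Recovered minus acute array of the same replicate number (log2, horizontal axis) for the 32 measured genes of the ATF4 and amino acid stress list; circles, squares and triangles are replicates 1, 2 and 3, and the bar is the mean difference. Most points lie left of 0, and in most of the genes called lower, though not in Slc7a3, the triangle lies closer to 0 than the circle, as for Chac1 with -2.20 against -7.12.

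The promoters of these genes were searched for the ATF4 response element because they moved together. The letters searched were TGATGNAAN on both strands, from 250 bases before to 50 bases after the start (RefSeq, GRCm38.p6). Of the 32 measured members 25 had a promoter in the table, and 8 of the 25 held a match (32.0%), against 4.50% of 27025 genes and 2.90% of the 11029 tested genes with a promoter. Among the members called lower, 4 of 11 with a promoter held one (36.4%), close to the share of the whole list. The list was drawn up around ATF4, so a high share comes with that choice and says nothing about why members fell. In 0 of the list's promoters did a match overlap one of the other elements searched, namely the interferon response element, TCACGTGA and TTTCCCGC. The stretches below show the match before the start in 3 of the members called lower, with the match in capitals and the strand of the gene, 5′ to 3′. They lie at chr2:119351018-119351086 (plus strand) for Chac1, chr6:7693210-7693262 (minus strand) for Asns and chr1:191183406-191183474 (minus strand) for Atf3, a stress-induced repressor that fell by 1.05 on the log2 scale (adjusted p = 0.0113, SE 0.19).
Chac1: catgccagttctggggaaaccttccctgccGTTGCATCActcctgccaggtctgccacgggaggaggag
Asns: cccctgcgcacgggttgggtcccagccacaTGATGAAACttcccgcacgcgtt
Atf3: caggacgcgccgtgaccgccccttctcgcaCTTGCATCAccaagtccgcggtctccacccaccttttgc
The first motif base lies 194, 23 and 111 bases before the start, in that order. In Chac1 and Atf3 the match is on the strand opposite to the gene. A match is a description of the letters in this window.

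The complement, Fc and phagocytic receptor genes called higher were searched in the same way. Of the 15 members called higher 11 had a promoter, and 1 held an interferon response element, against 3.91% of the tested genes with a promoter. Of the 11, 0 held the ATF4 letters, and 1 held TTTCCCGC, an E2F element, against 2.19% of the tested genes with a promoter.

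Lipid synthesis split into branches. Of 24 genes of fatty acid synthesis and lipid droplets 1 was higher and 6 lower, against 5.99% and 4.75% of all genes. Their median was -0.21. Scd2, a desaturase that makes monounsaturated fatty acids, was at 13.50, 13.43 and 11.17 on the acute arrays and at 10.58, 10.40 and 9.85 on the recovered arrays. It fell by 2.42 on the log2 scale (SE 0.40, limma adjusted p = 0.00808). Scd1 fell by 3.09 (SE 0.67, adjusted p = 0.0205), with pair differences of -4.47, -3.99 and -0.82. Acsl1, which activates long-chain fatty acids, rose by 1.30 ± 0.15 (adjusted p = 0.00199), from 15.18, 15.32 and 15.11 to 16.65, 16.62 and 16.23. Without the block the calls of Scd1 (adjusted p = 0.138) and Scd2 (0.0654) were lost, and that of Scd1 was lost without any one of recovered replicates 1 and 2 and acute replicates 1 and 2 (up to 0.0936). Of 25 sterol synthesis genes 5 were higher and 0 lower, against the same shares of all genes, with a median of 0.37. Hmgcs1, an early enzyme of the pathway, rose by 0.80 ± 0.14 (adjusted p = 0.00956), and Srebf2, its main regulator, by 0.71 ± 0.14 (adjusted p = 0.0134). Without the block all 5 sterol calls were lost (Hmgcs1 at adjusted p = 0.0567, Srebf2 at 0.127), and that of Srebf2 was lost without recovered replicate 1, acute replicate 2 or acute replicate 3 (up to 0.0617).

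Genes of glycolysis and hypoxia went both ways, with 7 of 25 higher and 3 lower, against 5.99% and 4.75% of all genes. Their median was 0.11 (0.00 with scaling to the median). Slc16a3, the lactate exporter, was at 11.44, 11.25 and 11.66 on the acute arrays and at 12.92, 13.03 and 13.00 on the recovered arrays. It rose by 1.53 ± 0.15 (limma, adjusted p = 0.00113), with a tolerant mean of 14.02. Pfkl, a phosphofructokinase, rose by 1.06 ± 0.13 (adjusted p = 0.00255). Ndrg1, a stress gene induced by low oxygen, fell by 2.57 on the log2 scale (adjusted p = 0.00481, SE 0.38), a call lost without the block (adjusted p = 0.137). Gapdh and Pkm of the core pathway each differed by -0.04.

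Markers of osteoclasts, which arise from the same precursors, were lower in 5 of 11 cases and higher in 0, against 4.75% and 5.99% of all genes, with a median of -0.22. Acp5, the tartrate-resistant acid phosphatase, fell by 1.02 on the log2 scale (SE 0.14, limma adjusted p = 0.00438), and Itgb3, an integrin chain, by 1.26 (SE 0.27, adjusted p = 0.0212). The summed linear level of the 11 genes ranged from 52800 to 84900 on the acute arrays and from 31500 to 47200 on the recovered arrays. Calcr, a defining osteoclast receptor, was above background on 0 arrays of either group. Of the 5 calls that of Mmp9 was left without the block, with Acp5 at adjusted p = 0.184 and Itgb3 at 0.0687. With the slide as the block those of Acp5 (0.0767), Ctsk (0.183) and Dcstamp (0.0803) were lost, and that of Itgb3 was lost without any array but recovered replicate 3 (up to 0.0926). In bulk RNA, fewer cells of a type and less RNA per cell cannot be told apart.

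Of 31 measured markers of other blood and stromal cells 9 were called (29%), against 10.7% of all genes. Of 4 measured neutrophil markers 1 was higher (Camp), of 7 stromal markers 1 was higher (Pdgfrb), and of 3 mast cell, basophil and eosinophil markers 1 was lower (Kit). The calls of Camp, Pdgfrb and Kit were lost without acute replicate 2 (adjusted p up to 0.179, 0.0646 and 0.0691 over the 6 arrays left out), Camp also without recovered replicate 1, recovered replicate 2 or acute replicate 1, and Kit without recovered replicate 1, recovered replicate 2 or acute replicate 3. Without the replicate block those of Camp (0.176) and Kit (0.190) were lost, and with the slide as the block that of Camp (0.0757). Of 5 lymphocyte markers 1 was lower. This was Cd79b, a chain of the B cell receptor, at 10.20, 9.47 and 8.64 on the acute arrays and 7.43, 7.02 and 5.52 on the recovered arrays. It fell by 2.78 on the log2 scale (SE 0.16, limma adjusted p = 0.000222; 0.0554 without the block), while the B cell genes Ms4a1 and Cd79a were above background on at most 1 array of either group. Of 6 dendritic cell markers Batf3 was lower and Fscn1, an actin-bundling protein, was higher by 2.78 ± 0.35 (adjusted p = 0.00246). Its level was 7.41, 7.24 and 7.55 on the acute arrays and 9.99, 9.97 and 10.57 on the recovered arrays. Of 6 erythroid and platelet markers 1 was higher and 2 lower. Pf4, a platelet chemokine, rose by 2.00 ± 0.18 (adjusted p = 0.000780), from 12.99, 13.07 and 14.01 to 15.11, 15.32 and 15.64. Gp9, a platelet glycoprotein, was above background on all 3 acute arrays and on 0 recovered arrays, and was at least 5.13-fold lower in recovered cells (adjusted p = 0.000697). The summed levels of the 6 ranged from 8560 to 16700 on the acute arrays and from 35500 to 51300 on the recovered arrays. Nearly all of these sums was Pf4 alone, at 8140 to 16500 and 35400 to 51100, and the median difference of the 6 was -0.07. For neutrophil markers the sums were 39100 to 78100 and 45300 to 60900, for dendritic cell markers 85300 to 124000 and 94100 to 103000, and for lymphocyte markers 8870 to 10200 and 9380 to 10500. For mast cell, basophil and eosinophil markers they were 2330 to 3150 and 3430 to 3970, and for stromal markers 558 to 997 and 703 to 1070. The part of any such cells in the differences was not tested.

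Among the 15 largest rises of genes with a reference name, Nwd2 and F13a1 were near background in acute cells. Ly6a and Ctla2a were above background on all 3 arrays of both groups. Nwd2, of a family of NACHT-domain proteins, was above background on 3 recovered arrays and 0 acute arrays, and was at least 9.90-fold higher (limma, adjusted p = 0.00164). Ly6a, which encodes the surface protein Sca-1 and is induced by interferon, was at 7.11, 6.67 and 7.23 on the acute arrays and at 10.82, 9.87 and 9.98 on the recovered arrays, and rose by 3.22 ± 0.46 (adjusted p = 0.00444). Ctla2a, an inhibitor of cysteine proteases, rose by 3.54 ± 0.34 (adjusted p = 0.00106), and Antxr1, an anthrax toxin receptor, by 2.92 ± 0.25 (adjusted p = 0.000697). F13a1, a transglutaminase chain of clotting factor XIII, rose by 3.46 ± 0.47 (adjusted p = 0.00338; 0.0852 without the block). It was above background on 3 recovered arrays and 1 acute array. F13a1 and Nwd2 passed the filter on signal above background through the recovered arrays alone, so their detection counts are partly set by it. The 15 largest rises were also chosen for no overlap and signal above background on all 3 recovered arrays. In tolerant cells Ly6a, Ctla2a and Antxr1 had means of 11.95, 10.81 and 7.19, above their acute means of 7.01, 8.49 and 4.74, and F13a1 had a mean of 3.06 against 3.03.

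The 15 largest falls of genes with a reference name were chosen for no overlap and signal above background on all 3 acute arrays. Among them was Raver2, which encodes an RNA-binding protein. It was at 11.73, 11.49 and 9.81 on the acute arrays and at 7.91, 6.85 and 2.48 on the recovered arrays, and fell by 5.26 on the log2 scale (SE 0.62, limma adjusted p = 0.00213; 0.0555 without the block). Of its 2 probes 1 was called lower. Its tolerant mean, 10.62, was near the acute mean of 11.01. Cacna1g, a calcium channel subunit, was at least 4.86-fold lower (adjusted p = 0.000546), above background on 3 acute arrays and 0 recovered arrays. The predicted genes Gm10406, Gm5796, Gm5797, Gm3411 and Gm3715 were called lower as well. Gm3411 was above background on 0 recovered arrays and was at least 9.53-fold lower, and Gm3715, above background on all 3 arrays of both groups, fell by 3.08 on the log2 scale. The other 3 were above background on 1 or 2 recovered arrays. Except for Gm3715, these predicted genes passed the filter on signal above background through the acute arrays alone, so their detection counts are partly set by it. Without the block all 5 calls were lost (adjusted p = 0.117, 0.128, 0.204, 0.0619 and 0.0568), and that of Gm3411 was lost without recovered replicate 1, acute replicate 1 or acute replicate 2 (up to 0.0560). They belong to a family of near-identical copies on chromosome 14, so the split of signal among them is uncertain.

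Part of the rises was tied to the sequence of the probes. Of the 549 genes whose probe of 60 bases held 10 or more TG dinucleotides, 154 were called higher (28.1%), against 1072 of the other 19920 (5.38%). Such probes accounted for 119 of the 394 genes at least 2-fold higher and for 3 of the 15 largest rises, Nhlh1, Npcd and Cd300a. The probe of Nwd2, the largest rise, held 9 TG, just under this cutoff. Among 57 genes with such a probe called higher and another probe on the array, the other probe was called higher for 7, and the median difference was 1.10 for the TG-rich and 0.11 for the other probes. These genes were picked for the call of the TG-rich probe, so lower values at the other probes follow in part from that choice. No matching count was made for genes picked by a probe with fewer TG, so this contrast cannot show an effect of sequence. With these probes left out, an alternative chosen after seeing the data, Nhlh1 was at -1.08 (limma, adjusted p = 0.0327) in place of 3.67 ± 0.31, and Ehmt1, a histone methyltransferase, was at 0.37 (adjusted p = 0.0832) in place of 1.94 ± 0.39. The call of Ehmt1 was also lost without the block (0.0566) and without recovered replicate 1, acute replicate 2 or acute replicate 3 (up to 0.0702). Hdac7, a histone deacetylase measured by such a probe alone, was at 9.35, 9.34 and 9.92 on the acute arrays and at 11.66, 11.36 and 12.24 on the recovered arrays. Ehmt1 and Hdac7 were the 2 calls among 34 histone modifiers and DNA methylation genes, against 10.7% called of all genes. The probes of Trib3, Atf4, Sesn2 and Slc7a3, which fell, and of Trem1, which rose, are of this kind too. The cause was not tested.

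In the remaining lists the counts stand against 5.99% higher and 4.75% lower among all genes. Of 26 mitotic genes 1 was higher, Kif23, a kinesin of cell division, by 0.84 ± 0.19 (limma, adjusted p = 0.0229), and of 28 genes of DNA replication 1 was higher, Gins2, by 0.62 ± 0.12 (adjusted p = 0.0151). Each call was lost without any array but recovered replicate 3 (adjusted p up to 0.0866 and 0.0698), and that of Kif23 without the block (0.171). Mki67, a proliferation marker, differed by -0.24. Of 21 targets of the oxidative stress regulator NRF2 1 was higher and 0 lower. Of 34 lysosome and autophagy genes 5 were higher and 1 lower, 32 intervals were inside 2-fold, and all 6 calls were lost without the block. Of 30 genes of cell death and survival 2 were higher and 2 lower, and Pmaip1, which encodes the death-promoting protein NOXA, fell by 1.37 on the log2 scale (adjusted p = 0.0130, SE 0.26). Of 15 clock genes 2 were lower, and Nfil3 fell by 1.61 (SE 0.32, adjusted p = 0.0150). Without the block the calls of Pmaip1 (0.191) and Nfil3 (0.153) were lost, as they were without recovered replicate 1, acute replicate 1 or acute replicate 2 (up to 0.0658 and 0.0744), and that of Nfil3 also without recovered replicate 2.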

How the data were processed

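Gene expression was measured on 12 Agilent 1-colour arrays, 3 per group, each with 62976 spots (59305 not controls). Per the file headers the authors extracted the spots with Agilent Feature Extraction 10.7.3.1, with probe positions on mm9. The deposited intensity used is the processed signal, which that software had already corrected for background. The authors' deposited series matrix holds log2 values with the normalization not stated (column medians 5.47 to 5.48); each of its 12 columns matched its own array best (r at least 0.973).

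Control and outlier spots were left out, log2 intensities were scaled to each array's 75th percentile, and spots of a probe were averaged. Probes had to exceed background clearly on the 3 arrays of some group (28056 of 55681 did), and each gene took its brightest probe. Probes were named through RefSeq by accession (26425), symbol (3988) or synonym (826), and 24442 kept the file's name. All 12 arrays were fitted with limma 3.58.1 in R 4.3.3, with the replicate number as a block, moderated variances and Benjamini-Hochberg adjustment over 20469 genes. "At least N-fold" sets the bright group's mean against the lowest clearly detected signals. Precision is limited by the number of arrays.

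The pairing comes from the labels, which describe 3 independent experiments. Deviations from the group means of same-numbered arrays correlated at 0.275 to 0.773 over 18 pairs of arrays, across genes, which are not independent replicates. Slide and scan day were taken from the files. Tested on simulated data for recovered against acute, with 100 of 20469 genes changed by 1 and 100 by 2 on the log2 scale, the fit recovered 67% and 95%, with 10 false calls among 172. The simulated errors were independent and the replicate block was correct by construction. The test therefore cannot give the share of false calls on the real arrays.

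Named genes were a fixed panel, the 15 largest rises and falls among called genes with a reference name, no overlap and signal above background in the higher group, and up to 4 called members per list with the smallest p; further list members were named to fill out their group after their values were seen. The comparison, members and lists were chosen with earlier results of these data known. Alternatives covered the block, the slide, the arrays fitted, background correction, scaling, the dim-probe filter, the probe per gene, the variance prior and each array left out. Promoters came from the RefSeq table (GRCm38.p6).

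A few genes are not reported here.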

Additional observations from a re-analysis of the deposited data

How the results depend on the processing

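The count of genes with a 95% interval inside 2-fold stayed within 1.5 times of 17257 under every alternative run, and ranged from 15615 to 17030 with arrays left out. This is a loose limit, since with 20469 genes tested the count could not rise 1.5 times. The share was smaller where more dim probes were tested. It was 24975 of 35396 genes without a filter on dim probes, and 17761 of 24630 with signal well above background on at least 1 array. The count of calls was less stable. Without the replicate block, that is without the pairing of arrays, 418 genes were called, 299 higher and 119 lower, all of them among the 2199 of the paired fit, and 60 of the 113 named genes with a call lost it. With the slide as the block 1600 genes were called and 1516 were shared. The fit of the 6 recovered and acute arrays alone called 828 genes, 462 higher and 366 lower, and that without a filter on dim probes 1098, 613 higher and 485 lower. Median scaling called 2177 genes, of which 776 were higher (35.6%), against 48.9% of calls with the authors' matrix, 50.9% with quantile normalization and 53.2% with normexp. Leaving out arrays or replicate numbers gave 136 to 1779 calls, 74 to 1007 higher and 62 to 772 lower. The count of 136 came with replicate 2 of every group left out, untreated and tolerant included. The sign of 5 small differences was not stable. Tnf was at -0.06 with median scaling and -0.01 with the authors' matrix, and ranged from -0.09 to 0.19 with arrays left out (0.00 and -0.04 among them). Il6 was at -0.03 with median scaling and ranged from -0.20 to 0.27 with arrays left out (-0.13 and -0.06 among them). Cxcl10 was at -0.15 with quantile normalization, -0.06 with median scaling, -0.05 with the authors' matrix and ranged from -0.04 to 0.17 with arrays left out (-0.01 and 0.00 among them). Acod1 was at 0.00 with the authors' matrix and Nos2 ranged from 0.00 to 0.43 with arrays left out. Without probes of 10 or more TG, chosen after seeing the data, Nhlh1 was at -1.08. The cause was not tested. Signal over background limits genes near background. A bound is given where a group was above it on 0 arrays, and differences such as those of Ifng and F13a1, above it on 1 acute array, include signals at background.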
